A study of Mus musculus with 6 samples.

Results

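The expression of 32 genes that encode the enzymes and transporters of glycolysis, of the lactate and pyruvate steps that follow it, and of glycogen turnover was examined in single cells of the mouse striatum. The genes were taken from a list fixed by name, and all 32 were present among the 32285 genes of the count table. They were read as unique molecular identifiers (UMIs, each standing for 1 captured transcript) from 10x Chromium 3′ single-cell RNA-Seq of cells enriched with magnetic beads against the astrocyte surface antigen ACSA2. Striata of wild-type male C57BL/6 mice were sampled at postnatal day 3 (P3, 3 libraries) and at an age of 3 months (3m, 3 libraries), with no treatment and no transgene in either group. Each preparation combined tissue of several animals, and the labels give no batch. Of 16690 barcodes 14373 carried the authors' cell annotation, and 9992 of these were astroglial cells, split into sub-clusters 0 to 16 that the authors numbered.

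In glycolysis, hexokinases trap glucose as glucose 6-phosphate, the preparatory enzymes split the sugar into triose phosphates, and the payoff enzymes make ATP and pyruvate. Lactate dehydrogenase reduces pyruvate to lactate, which leaves the cell through monocarboxylate transporters. Pyruvate can instead enter mitochondria, where it is oxidised by the pyruvate dehydrogenase complex, which the Pdk kinases switch off. Astrocytes are known as the main glycogen store of the brain and as a source of lactate. Several reactions are served by isozymes encoded by separate genes, and the genes were therefore described by role and, within a role, by isozyme.

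The DNA in front of *Hk2*, *Pfkp* and both lactate dehydrogenase genes is shown as the 250 bases before the RefSeq transcription start (build GRCm38.p6). The bases are printed 5′ to 3′ on the strand of the gene. Capitals mark each copy of ACGTG, a form of the core of the hypoxia response element, or of its reverse complement CACGT. The overlapping palindrome CACGTG holds both, and other forms of the core were not marked or counted. *Hk2*, hexokinase 2, and *Ldha*, the A subunit of lactate dehydrogenase, were lower at 3m. *Pfkp*, the platelet isozyme of phosphofructokinase, was higher at 3m, and *Ldhb* is the partner of *Ldha*. The *Hk2* window, chr6:82774455-82774704 on the minus strand, held 2 copies of CACGT. The *Ldha* window, chr7:46845554-46845803 on the plus strand and the more upstream of 2 annotated starts, held ACGTG 2 times and CACGT 3 times. No copy of ACGTG or CACGT was present in the *Ldhb* window, chr6:142507958-142508207, or in the *Pfkp* window, chr13:6648772-6649021, both on the minus strand.
Hk2: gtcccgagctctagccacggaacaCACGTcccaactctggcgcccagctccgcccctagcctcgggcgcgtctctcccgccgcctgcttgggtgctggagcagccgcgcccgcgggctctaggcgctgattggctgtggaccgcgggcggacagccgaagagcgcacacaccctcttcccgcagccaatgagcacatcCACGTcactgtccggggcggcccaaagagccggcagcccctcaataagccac
Ldha: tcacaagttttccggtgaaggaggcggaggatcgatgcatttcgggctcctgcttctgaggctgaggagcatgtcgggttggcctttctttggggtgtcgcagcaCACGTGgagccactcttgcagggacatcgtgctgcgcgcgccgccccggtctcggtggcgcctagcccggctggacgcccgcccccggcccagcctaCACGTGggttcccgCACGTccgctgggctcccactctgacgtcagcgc
Ldhb: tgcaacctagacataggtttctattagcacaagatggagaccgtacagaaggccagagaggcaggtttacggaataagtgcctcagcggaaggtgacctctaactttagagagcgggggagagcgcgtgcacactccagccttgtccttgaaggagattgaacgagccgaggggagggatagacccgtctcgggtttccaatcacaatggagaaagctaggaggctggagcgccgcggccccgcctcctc
Pfkp: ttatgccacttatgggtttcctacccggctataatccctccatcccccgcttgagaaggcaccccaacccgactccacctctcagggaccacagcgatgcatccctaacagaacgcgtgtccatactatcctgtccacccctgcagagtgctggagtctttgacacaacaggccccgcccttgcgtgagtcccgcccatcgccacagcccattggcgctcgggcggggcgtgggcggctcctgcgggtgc

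A RefSeq window was given for 30 of the 32 genes (not for *Slc2a3* and *Slc16a7*). The letters ACGTG or CACGT stood in at least 1 window of 14 of these 30 genes (46.7%), beside 4998 of all 27025 genes with a window (18.5%). Counted by window, 17 of 45 windows of the 32 genes held them (37.8%), beside 5444 of all 32851 windows (16.6%). Among the genes called higher at 3m 5 of 9 held a copy (*Pygb*, *Slc16a1*, *Ugp2*, *Pdk2* and *Pfkm*), among those called lower 2 of 2, and among those with no call 7 of 19. The match describes the letters in these windows, and no factor was measured on them.

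The first comparison asked how the genes differed between P3 and 3m astroglial cells. UMIs of the astroglial cells were summed per library, which gave 213, 546 and 359 cells at 3m and 1985, 3103 and 3786 at P3, with 1157485 to 1843998 UMIs per 3m library and 22327104 to 30617140 per P3 library. Levels are given as counts per 1000000 UMIs of the class (CPM). They are compared between samples and not between genes, since a 3′ UMI level is not set to transcript length. Because each library pools animals, p-values measure the spread between preparations. A gene was called when edgeR's quasi-likelihood test gave an adjusted p of at most 0.05 and a change of at least 2-fold. Of 31 genes tested 9 were called higher at 3m, where 15.8% of the 13530 genes tested were, and 2 were called lower, where 16.3% of all genes were. The median log2(fold change) was 0.60 over the 31 genes and -0.04 over all genes. The sum over all 32 genes was 14364, 12954 and 13895 CPM at 3m and 6873, 8004 and 8458 CPM at P3, and the ages did not overlap. *Aldoc*, the aldolase that marks astrocytes in the brain, supplied most of that gap (4772 CPM ± 575 at 3m and 907 ± 13.7 at P3, SD, n = 3).

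Several measures that are not glycolytic moved with age in the same sums, and their part in the results was not tested. The 8 astrocyte markers summed to 10464 to 11123 CPM at 3m and to 4320 to 5448 CPM at P3. The 7 oligodendrocyte markers summed to 710 to 1872 CPM at 3m and to 5.59 to 6.54 CPM at P3, where *Mog* and *Opalin* had no UMI. The 9 immediate early genes that respond to dissociation summed to 121 to 185 CPM at 3m and to 3275 to 4123 CPM at P3. The median share of mitochondrial UMIs was 5.97% to 8.18% at 3m and 1.27% to 2.47% at P3. Some sub-clusters came almost from a single library, such as 1 (95.5% of cells from P3 replicate 1), 4 and 12 (97.8% and 96.1% from P3 replicate 3) and 14 (98.9% from 3m replicate 1). Sub-cluster 12 also carried endothelial markers at a sum of 594 CPM, against at most 14.6 CPM in any library of the other sub-clusters. Without sub-cluster 12, a setting chosen after seeing the data, 9 genes were called higher and 2 lower, as with it. Across all cells 28 barcode sequences occurred in more than 1 library.

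**Figure D1:**
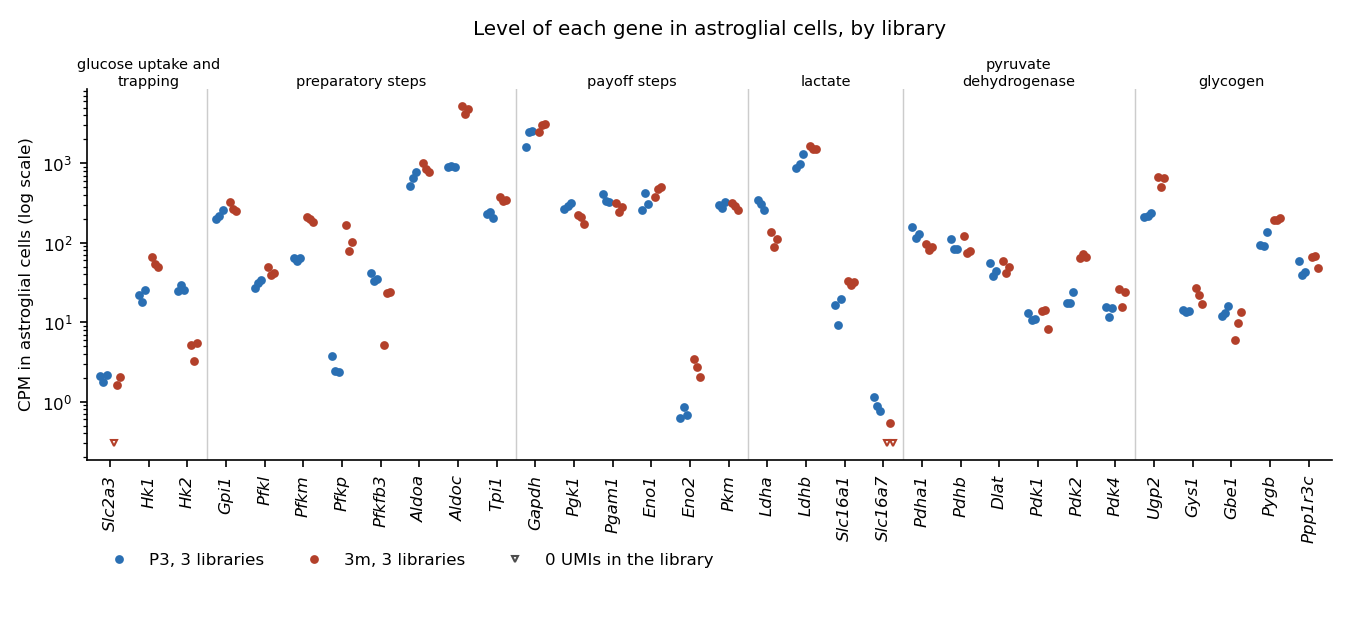
Level of each of the 32 genes in astroglial cells in CPM (log axis), 1 point per library, P3 in blue and 3m in red, grouped by role; open triangles mark libraries with 0 UMIs. *Pfkp* sits at 79.2 to 165 CPM at 3m and at 2.36 to 3.76 CPM at P3, while the points of *Pkm* and *Gapdh* overlap between the ages.

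At the entry of glucose, the hexokinases moved in opposite directions. *Hk1*, the constitutive hexokinase of brain, stood at 65.7, 54.2 and 50.3 CPM at 3m and at 21.8, 17.9 and 25.1 CPM at P3. *Hk2*, the insulin- and hypoxia-responsive form, stood at 5.18, 3.25 and 5.43 CPM at 3m and at 25.0, 29.4 and 25.8 CPM at P3. For either gene the libraries of the ages did not overlap. *Hk1* rose (log2(fold change) 1.58 ± 0.17 SE, adjusted p = 7.15e-06) and *Hk2* fell by 2.38 on the log2 scale (± 0.28, adjusted p = 1.55e-05, edgeR). The *Hk2* values at 3m rest on 6, 6 and 8 UMIs. *Hk1* was at 0.98, under 2-fold, in a stricter set of cells (more than 1000 genes detected, mitochondrial share below 5%). At 3m this set kept only 12, 137 and 88 astroglial cells, with 50876 UMIs in 3m replicate 1. *Slc2a3*, the neuronal glucose transporter GLUT3, was sparse at both ages (0 to 2.04 CPM at 3m and 1.80 to 2.16 CPM at P3) and had no call.

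Among the preparatory enzymes, 3 of 8 rose, among them 2 of the 3 phosphofructokinases, which catalyse the committed step. *Pfkp* stood at 165, 79.2 and 101 CPM at 3m and at 3.76, 2.42 and 2.36 CPM at P3. The log2(fold change) of 5.51 ± 0.29 (adjusted p = 1.44e-08) was the largest among the 31 genes tested. *Pfkm*, the muscle isozyme of the same enzyme, stood at 211, 202 and 183 CPM at 3m and at 64.0, 58.4 and 63.7 CPM at P3 (1.87 ± 0.15, adjusted p = 6.57e-07). *Pfkl*, the liver isozyme, passed the test at 1.61-fold (0.68, adjusted p = 0.0055), under the size set for a call. For *Pfkp* and *Pfkm* every 3m library lay above every P3 library.

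*Aldoc* stood at 5313, 4169 and 4834 CPM at 3m and at 901, 923 and 897 CPM at P3, and *Aldoa*, the ubiquitous aldolase, at 999, 836 and 769 CPM at 3m and at 520, 659 and 777 CPM at P3. The *Aldoc* groups were far apart, whereas a P3 library of *Aldoa* reached above a 3m library. *Aldoa* had no call (0.60 ± 0.21, adjusted p = 0.029). *Tpi1*, triose phosphate isomerase, and *Gpi1*, glucose phosphate isomerase, passed the test below 2-fold (0.80 and 0.50), the latter not with no scaling beyond library totals (0.31, adjusted p = 0.15). *Pfkfb3* makes fructose 2,6-bisphosphate, the main activator of phosphofructokinase, and was the only preparatory gene with a negative value. It stood at 5.18, 23.3 and 23.8 CPM at 3m and at 41.4, 33.5 and 35.5 CPM at P3, with the 3m library of replicate 1 far below the other 5. The log2(fold change) of -0.81 ± 0.31 was under 2-fold. Without 3m replicate 1 it was -0.49 and did not pass the test (adjusted p = 0.076). It was called lower when only sub-clusters 0, 1, 2, 7, 9, 11 and 14, taken as the telencephalic lineage, were kept (-1.59), without cycling cells (-1.03), with no scaling beyond library totals (-1.01), and without 3m replicate 2 (-1.13) or 3m replicate 3 (-1.10).

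Of the 6 payoff genes *Eno2*, the neuronal enolase, was the single call, at 3.46, 2.71 and 2.04 CPM at 3m and 0.63, 0.85 and 0.69 CPM at P3 (2.06 ± 0.52, adjusted p = 0.0050), on 3 to 5 UMIs per 3m library. *Gapdh*, glyceraldehyde 3-phosphate dehydrogenase, stood at 2445, 2990 and 3157 CPM at 3m and at 1601, 2505 and 2515 CPM at P3, with overlapping libraries (0.56 ± 0.26, adjusted p = 0.089). *Pkm*, pyruvate kinase, stood at 259 to 316 CPM at 3m and at 274 to 322 CPM at P3 (0.14 ± 0.16, adjusted p = 0.50, and -0.05 with no scaling beyond library totals). *Pgk1* and *Pgam1*, phosphoglycerate kinase and mutase, had values of -0.34 and -0.17 and no call. *Eno1*, the ubiquitous enolase, had 0.63 and no call, and its UMIs are uncertain because the near-identical copy *Eno1b* was counted apart, at 47.6 CPM in 3m and 31.7 CPM in P3 astrocytes.

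At the lactate step the dehydrogenase genes parted. *Ldha* stood at 137, 89.5 and 112 CPM at 3m and at 341, 306 and 258 CPM at P3. *Ldhb*, whose subunit favours the return of lactate to pyruvate, stood at 1654, 1522 and 1520 CPM at 3m and at 877, 987 and 1316 CPM at P3. Both genes separated the ages without overlap, *Ldha* with higher P3 libraries and *Ldhb* with higher 3m libraries. *Ldha* fell by 1.25 on the log2 scale (± 0.20, adjusted p = 0.00019, edgeR). *Ldhb* passed the test at 1.69-fold, under the size for a call (0.76 ± 0.21, adjusted p = 0.010). When cells with a UMI of *Mki67*, *Top2a* or *Cdk1* were left out, *Ldha* was at -0.95, past the test and under 2-fold.

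*Slc16a1*, the lactate transporter MCT1, stood at 32.8, 29.3 and 31.9 CPM at 3m and at 16.6, 9.15 and 19.4 CPM at P3 and rose (1.27 ± 0.25, adjusted p = 0.00089). Its 3m libraries lay close together and above all P3 libraries. Without sub-cluster 12, where it stood at 277 CPM, the value was 1.40, and in the stricter set of cells it was 0.96 and did not pass the test (adjusted p = 0.079). *Slc16a7*, the transporter MCT2, was too sparse to test, with 0, 1 and 0 UMIs at 3m and 26, 27 and 19 UMIs at P3. The P3 level was 0.77 to 1.16 CPM, and a difference from it cannot be judged from so few UMIs at 3m.

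At the pyruvate dehydrogenase step a call was made for *Pdk2*, a kinase of the complex. *Pdha1*, *Pdhb* and *Dlat*, which encode the E1 and E2 subunits, had values of -0.40, 0.14 and 0.30 and no call, and *Pdhb* was at -0.04 with no scaling beyond library totals. *Pdk2*, a kinase that inactivates the complex, stood at 63.9, 72.1 and 65.9 CPM at 3m and at 17.3, 17.7 and 24.2 CPM at P3 and rose (1.97 ± 0.18, adjusted p = 1.36e-06). All 3 of its 3m libraries were at least 2-fold above each P3 library. *Pdk4* had 0.81 (adjusted p = 0.0080) and *Pdk1* 0.24, neither with a call.

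In glycogen turnover 2 of 5 genes rose. *Ugp2*, which makes the UDP-glucose used for glycogen, stood at 678, 506 and 656 CPM at 3m and at 209, 220 and 236 CPM at P3 (1.66 ± 0.19, adjusted p = 1.02e-05). *Pygb*, the brain glycogen phosphorylase, stood at 194, 193 and 203 CPM at 3m and at 94.1, 90.1 and 137 CPM at P3 (1.08 ± 0.18, adjusted p = 0.00024). Both separated the ages, but *Pygb* lay close to the 2-fold limit. It had no call without cycling cells (0.80) or without 3m replicate 3 (0.99), among other settings. *Gys1*, glycogen synthase, passed the test under 2-fold (0.84, adjusted p = 0.0042), as did *Ppp1r3c*, the subunit that brings phosphatase 1 to glycogen (0.56, adjusted p = 0.029). *Ppp1r3c* was at -0.03 (adjusted p = 0.92) in the telencephalic sub-clusters alone, and in the stricter set of cells neither *Gys1* (adjusted p = 0.27) nor *Ppp1r3c* (adjusted p = 0.15) passed the test. *Gbe1*, the branching enzyme, had -0.27 and no call.

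Other genes of the same pathways, 61 in all, were read for context. Of 48 tested in astroglial cells 16 were called higher at 3m, where 15.8% of all genes tested were, and 4 lower, where 16.3% were. The median log2(fold change) over the 48 was 0.38. Of the 16, several act on glycogen, while other glycogen genes among the 48, such as the liver phosphorylase *Pygl*, had no call. *Pygm*, the muscle phosphorylase, stood at 62.2, 60.2 and 42.1 CPM at 3m and at 0.81, 0.88 and 0.85 CPM at P3 (6.18 ± 0.23). Among those also called higher were *Pgm1*, phosphoglucomutase (1.16), the phosphorylase kinase subunits *Phkg1* (3.36) and *Phka1* (2.46), the phosphatase subunits *Ppp1r3d* (1.92) and *Ppp1r3g* (2.11), *Epm2a*, laforin (1.41), and *Gaa*, the lysosomal glucosidase (1.21). *Slc2a1*, the glucose transporter GLUT1, stood at 170, 68.9 and 76.7 CPM at 3m and at 31.8, 18.5 and 22.0 CPM at P3 (2.29 ± 0.30, adjusted p = 3.27e-05). No P3 library reached a 3m library for *Pygm* or *Slc2a1*. Further genes that rose were *Pfkfb4*, *Bsg*, the partner of MCT1 at the membrane, *Ldhd*, *G6pc3*, *Gpd1* and the hypoxia factor *Epas1*. The *Ldhd* value rests on 9 to 14 UMIs per 3m library and that of *Gpd1* on 3 to 7. The 4 that fell were *Pgls* of the pentose phosphate path, *Pdk3*, and the oxygen sensors *Egln1* and *Egln3*.

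The share of UMIs that each isozyme took within its reaction was compared by library, since such a share does not depend on scaling. Genes differ in how well their 3′ ends are captured, so only the change of a share is read. All 8 shares separated the ages without overlap, and each gave a two-sided exact permutation p = 0.1, the smallest that 3 against 3 libraries allow, so none could reach 0.05, and the value adjusted over the 8 shares was also 0.1. *Hk2* took 7.32%, 5.66% and 9.76% of hexokinase UMIs at 3m and 53.4%, 62.2% and 50.6% at P3. *Aldoc* took 84.2%, 83.3% and 86.3% of aldolase UMIs at 3m and 63.4%, 58.4% and 53.6% at P3. *Ldhb* took 92.4%, 94.4% and 93.1% of lactate dehydrogenase UMIs at 3m and 72.0%, 76.3% and 83.6% at P3. The difference of the means was -47.8 percentage points for *Hk2*, 26.1 for *Aldoc* and 16.0 for *Ldhb*.

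Among the phosphofructokinases *Pfkp* took 38.8%, 24.7% and 31.1% of UMIs at 3m and 3.98%, 2.64% and 2.36% at P3. The share of *Pfkm* was 49.6%, 63.1% and 56.2% at 3m and 67.8%, 63.7% and 63.8% at P3, and here the nearest libraries of the ages lay within each other's 95% Wilson interval. *Pdk4* took 21.6% ± 5.34 (SD, n = 3) of the UMIs of *Pdk1*, *Pdk2* and *Pdk4* at 3m and 30.8% ± 2.55 at P3. *Slc16a7* took 0.61% ± 1.05 of the UMIs of the transporter pair at 3m, on 0, 1 and 0 UMIs, and 6.40% ± 2.49 at P3. *Eno2* took under 1% of enolase UMIs in every library, 0.63% ± 0.26 at 3m and 0.22% ± 0.02 at P3. The intervals cover counting error only.

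**Figure D2:**
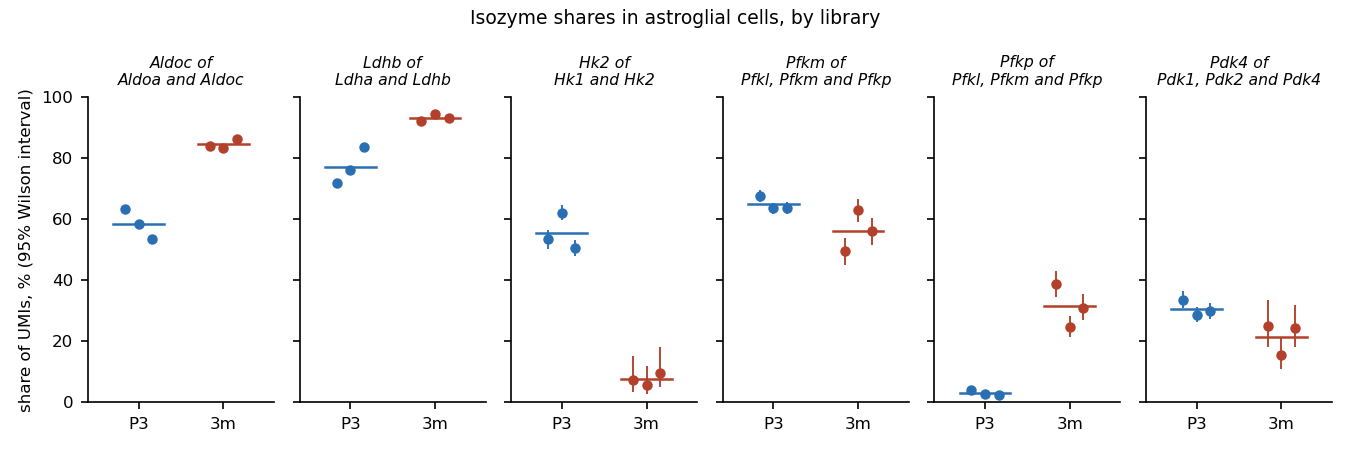
Share of UMIs of 1 isozyme within its reaction in astroglial cells, in percent, 1 point per library with its 95% Wilson interval and a bar at the group mean, P3 in blue and 3m in red. *Hk2* lies at 50.6% to 62.2% at P3 and at 5.66% to 9.76% at 3m, while the *Pfkm* points of the ages lie next to each other.

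The same age comparison was made in microglia and in endothelial cells to ask whether the differences were shared. Microglia carried all 6 of their markers at both ages (sums of 17501 to 23824 CPM at 3m and 8971 to 10966 CPM at P3) but comprised only 20, 23 and 17 cells at 3m and 34, 44 and 46 at P3. Of 14 genes tested 3 were called lower at 3m, where 3.43% of the 2679 genes tested were, and 0 were called higher, where 6.68% were. By edgeR 2 genes were positive at an unadjusted p under 0.05 (*Hk2* and *Ldhb*, neither past 2-fold), and DESeq2 also called 0 higher. *Hk1*, *Pfkm*, *Pfkp*, *Eno2*, *Slc16a1*, *Pdk2* and *Pygb*, called higher in astroglial cells, did not pass the filter on low counts in microglia. Whether their rise was shared therefore could not be tested. Of the genes called higher in astroglial cells only *Aldoc* (0.19, edgeR, adjusted p = 0.88) and *Ugp2* (-0.76, adjusted p = 0.39) were tested here. *Pkm* stood at 128, 129 and 150 CPM at 3m and at 296, 285 and 421 CPM at P3 (-1.19 ± 0.28, adjusted p = 0.012). *Pgk1* was at -1.38 (adjusted p = 0.021) and *Gpi1* at -1.27 (adjusted p = 0.031). All 3 calls were lost without 3m replicate 1, only 1 was left without 3m replicate 2 or without P3 replicate 3, and only *Pkm* was left with DESeq2. *Hk2*, the gene that fell in astroglial cells, stood in microglia at 277, 387 and 487 CPM at 3m and at 171, 273 and 235 CPM at P3 (0.84 ± 0.28, adjusted p = 0.071). Its 3m libraries were all above the P3 libraries, and the difference did not pass the test.

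Endothelial cells of the ages lay in different clusters, and END_17 at 3m (59, 47 and 57 cells) was compared with END_7 at P3 (173, 172 and 260 cells), so that age and cluster cannot be told apart. P3 endothelial cells of END_13 (339 cells) and END_12 (346 cells in 1 library) were not part of the comparison. END_7 and END_17 carried all 5 endothelial markers, and END_17 also summed to 6152 to 6497 CPM over the 5 pericyte markers, beside 1857 to 3328 CPM in END_7. Other markers were also higher in END_17, with 122 to 677 CPM against 1.56 to 3.81 CPM over the 7 oligodendrocyte markers and 127 to 280 CPM against 8.26 to 20.5 CPM over the 6 neuron markers. The 4 red blood cell markers summed to 19162 to 42600 CPM in END_17 and 9588 to 26843 CPM in END_7. The part of these cells in the results was not tested. Of 26 genes tested 2 were called higher at 3m, where 11.6% of the 10271 genes tested were, and 2 lower, where 10.7% were. *Slc16a1*, through which the blood-brain barrier passes lactate, stood at 196, 187 and 163 CPM at 3m and at 774, 461 and 482 CPM at P3 and fell by 1.74 on the log2 scale (± 0.21, edgeR, adjusted p = 3.46e-06). *Gapdh* was at 605, 879 and 803 CPM at 3m and at 1055, 2067 and 2062 CPM at P3 (-1.30 ± 0.27, adjusted p = 0.0011). For both genes every P3 library lay above every 3m library, as did END_13 (236 to 552 CPM of *Slc16a1* and 1146 to 2663 CPM of *Gapdh*), and in astroglial cells *Slc16a1* had risen.

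*Gbe1* rose in the endothelial clusters (74.7, 46.7 and 46.2 CPM at 3m and 13.4, 8.57 and 10.3 CPM at P3, 2.32 ± 0.27). *Aldoc* was also called higher there, at 42.7, 214 and 102 CPM at 3m and 9.39, 8.57 and 10.8 CPM at P3 (3.38 ± 0.38). In P3 cluster END_13, however, *Aldoc* stood at 76.1 to 382 CPM, which overlaps the 3m values, and *Gbe1* at 0 to 18.2 CPM, which does not. The 8 astrocyte markers moved with *Aldoc*, from 163 to 179 CPM in END_7 to 242 to 860 CPM in END_17. In END_13 they summed to 487 to 2255 CPM, and their part in the *Aldoc* values was not tested. In the stricter set of cells *Aldoc* had no call (0.70, adjusted p = 0.36). *Pkm*, *Pgk1* and *Gpi1*, the 3 genes called lower in microglia, were at -0.92, -0.88 and -0.67 here, past the test and under 2-fold. *Hk2* had no UMI in END_17 and 1.42 to 1.76 CPM in END_7. Of the 32 other pathway genes tested, *Slc2a1*, *Gpd2*, *Gaa*, *Epas1* and *Phka1* were called higher, where 11.6% of all genes were. *Pgd*, *Pgm2*, *Bpgm*, *Pgls* and *Tkt* were called lower, where 10.7% were. Among the 9 tested in microglia *Pgls* alone was called, lower, where 3.43% of all genes were.

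**Figure D3:**
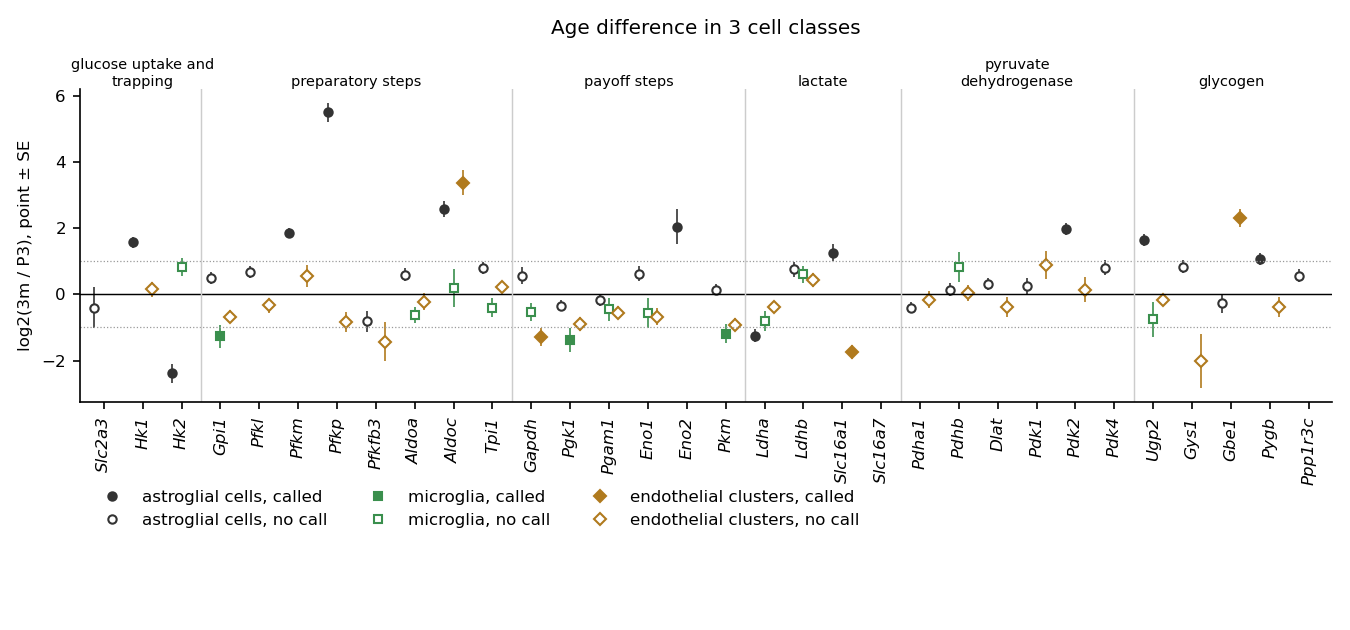
Log2(3m / P3) with its SE for each gene tested in astroglial cells, microglia and endothelial clusters; filled symbols are called and dotted lines mark 2-fold. In the payoff group all microglial and endothelial points lie below 0, between -0.45 and -1.38, while 4 of the 6 astroglial points lie above 0, of which *Pkm* (0.14) is at -0.05 with no scaling beyond library totals.

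Whether the age difference itself differed between classes was tested with an interaction term within libraries. Against microglia 9 of 29 genes had a more positive age difference in astroglial cells, where 5.15% of the 9285 genes tested did, and *Hk2* a more negative one (-2.86), where 1.86% did. The 9 were *Gpi1*, *Aldoa*, *Aldoc*, *Tpi1*, *Gapdh*, *Pgk1*, *Eno1*, *Pkm* and *Ugp2*. The median over the 29 genes was 1.45 and over all genes 0.36 (0.24 with relative log expression scaling and 0.17 with DESeq2). With DESeq2 *Aldoc*, *Pgk1* and *Eno1* did not pass the test. Against the endothelial clusters 13 of 29 were more positive, where 7.70% of the 12766 genes tested were, and 2 more negative, *Gbe1* and *Ppp1r3c*, where 8.34% were. Here the medians were 1.12 and -0.05. The 13 were *Hk1*, *Gpi1*, *Pfkl*, *Pfkm*, *Pfkp*, *Gapdh*, *Eno1*, *Pkm*, *Slc16a1*, *Pdk2*, *Ugp2*, *Gys1* and *Pygb*, with *Pfkp* at 6.51 and *Slc16a1* at 3.10. Both tests use the same astroglial libraries. *Gys1* and *Ppp1r3c* did not pass without 3m replicate 1 (adjusted p = 0.090 and 0.25), and *Ppp1r3c* did not pass with DESeq2 (adjusted p = 0.066).

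Levels were next described across the cell classes with 3 libraries, without a test, because the authors' clusters were made from the same cells. Among the 5 classes of 3m, astrocytes had the highest mean level of 19 of the 32 genes. For 12 of these every astrocyte library lay above every library of the other classes. Among the 10 classes of P3, astrocytes led for 9 genes, *Pfkm*, *Pfkfb3*, *Aldoc*, *Ldhb*, *Pdk2*, *Pdk4*, *Gys1*, *Pygb* and *Ppp1r3c*, 4 of them without overlap. The 3m classes held no neurons, glial progenitors or oligodendrocyte precursors, so these counts cannot be compared between the ages. How often astrocytes led over all genes was not counted. Glial progenitors, the proliferating class at P3, led for 8 genes, *Tpi1*, *Gapdh*, *Pgk1*, *Pgam1*, *Eno1*, *Ldha*, *Pdha1* and *Dlat*, each with overlap between libraries of different classes. P3 neurons led for 6, among them *Slc2a3* (19.9 CPM), *Hk1*, *Eno2* (23.9 CPM) and *Pfkp* (94.2 CPM), on 53 cells. The genes that most set this neuron cluster apart from all other cells were led by *Pcp2*, *Calb1* and *Cck*. Whether these neurons are striatal was not tested.

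*Hk2* was highest in microglia at both ages, at 384 CPM ± 105 (SD, n = 3) at 3m and 226 ± 51.7 at P3, against 26.4 CPM in P3 astrocytes. *Slc16a1* was highest in endothelial cells, at 163 to 196 CPM in END_17 and 461 to 774 CPM in END_7, with 57.1 CPM in 3m oligodendrocytes and 31.3 CPM in 3m astrocytes. *Slc16a7*, near 0 in astrocytes, reached 28.6 CPM ± 24.4 in 3m microglia, on 1 to 3 UMIs per library, and 20.3 CPM in 3m oligodendrocytes. Oligodendrocytes, whose markers were found in the 3m astroglial sums, had lower mean levels than 3m astrocytes of *Pfkp* (5.56 CPM), *Pfkm* (6.82 CPM), *Aldoc* (141 CPM), *Pdk2* (27.2 CPM), *Ugp2* (106 CPM) and *Pygb* (13.9 CPM), and a higher one of *Slc16a1*. When astroglial cells with at least 2 UMIs of *Mog*, *Mag*, *Mobp*, *Opalin* and *Cldn11* together were left out, 9 genes were called higher and 2 lower. *Ldha* stood at 30.1 CPM in oligodendrocytes, below the 3m astrocytes. In 3m microglia the oligodendrocyte markers summed to 150 to 2360 CPM, beside 28008 to 50302 CPM in oligodendrocytes, and the part of such RNA in low microglial values was not tested.

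**Figure D4:**
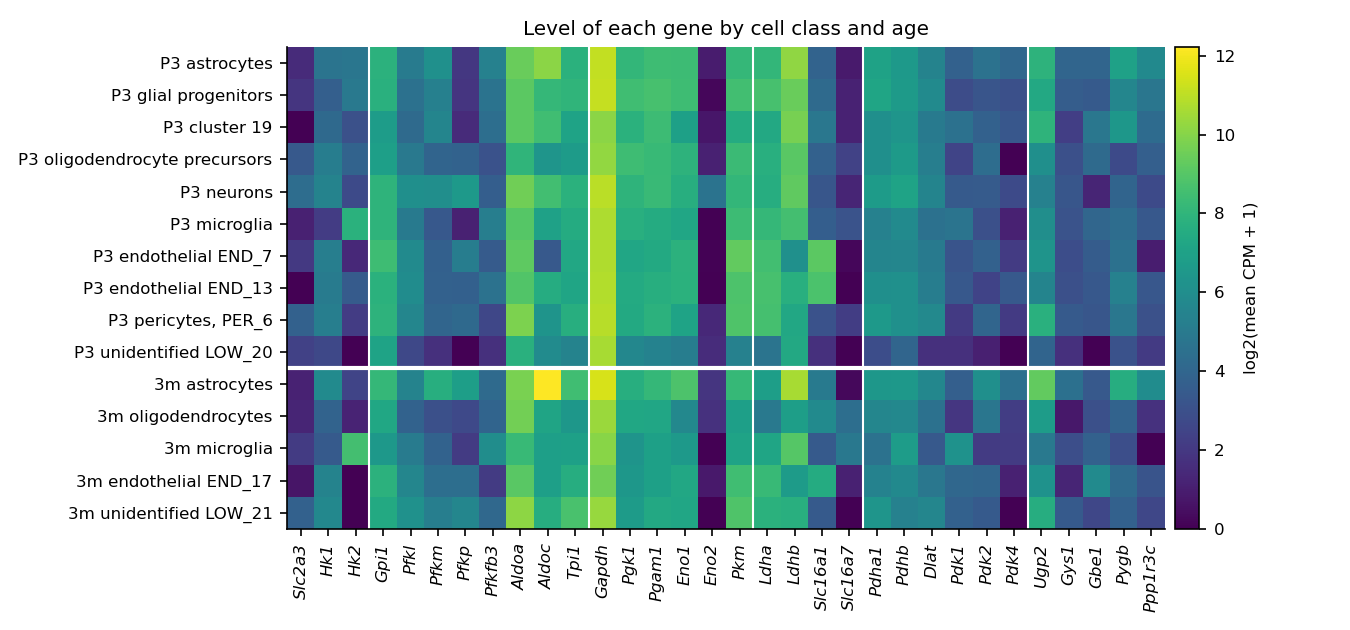
Mean level of each gene, as log2(mean CPM + 1) by colour, in the cell classes with 3 libraries, P3 above and 3m below the white line. The *Aldoc* cell of 3m astrocytes (4772 CPM) is the brightest, *Hk2* is bright in microglia of both ages, and *Slc16a1* in the endothelial clusters.

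Among the astroglial sub-clusters of P3, the levels are again a description without a test. The paper proposes that P3 sub-clusters 3, 4, 5, 10, 12 and 15 and 3m sub-clusters 13 and 16 may come from adjacent brain regions. In the paper these sub-clusters grouped with non-telencephalic astrocytes of a reference atlas. *Ldha* was highest in sub-cluster 2 (486 CPM ± 73.4) and in the proliferating sub-clusters 6 and 8 (427 and 374 CPM), and lowest in 10, 5 and 3 (81.1, 121 and 128 CPM). Among the sub-clusters with 3 libraries *Pkm*, *Pgk1* and *Pdha1* were also highest in sub-cluster 2 (379, 368 and 173 CPM). *Aldoc* ran the other way, lowest in 8 and 6 (248 and 332 CPM) and highest in 10 (1759 CPM ± 138). *Ldhb* was highest in sub-clusters 3 and 5 (1598 and 1593 CPM), *Pygb* in 3 (207 CPM), and *Ugp2* in 3 (379 CPM).

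*Hk2* was highest in sub-clusters 9 and 1 (50.7 and 47.0 CPM, 9 with 2 libraries) and lowest in 10 (2.44 CPM), and *Pfkfb3* was highest in sub-cluster 1 (87.5 CPM), which comes almost from P3 replicate 1. The 9 immediate early genes that respond to dissociation summed to 8469 to 10226 CPM in sub-cluster 9 and 4277 to 11049 CPM in 1. In the other P3 sub-clusters they reached at most 5284 CPM in a library. Their part in the *Hk2* and *Pfkfb3* levels was not tested. *Slc16a1* stood at 277 CPM in sub-cluster 12 and at 5.93 to 27.6 CPM in the other P3 sub-clusters. Sub-cluster 12 also held pericyte markers at a sum of 1504 CPM, and their part in that level was not tested. Of the 3m sub-clusters, *Aldoc* was highest in 7 and 14 (5659 and 5302 CPM) and lowest in 16 (2927 CPM), whose oligodendrocyte markers summed to 12133 to 34850 CPM. *Pfkm* stood at 319 CPM in sub-cluster 13, which drew 83.2% of its cells from 3m replicate 2, and at 157 to 195 CPM in 7, 14 and 16. *Pfkp* was at 33.5 to 172 CPM in the 3m sub-clusters and at 13.4 CPM or less in each P3 sub-cluster.

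The authors' pseudotime orders the cells of the main lineage from proliferating sub-cluster 6 to the main 3m sub-clusters in 20 bins. Bins 3 to 14 held P3 cells of all 3 libraries and bins 16 to 18 held 3m cells of all 3, so the order within an age is free of age, and the step between bins 14 and 16 is the age difference itself. Since the order was computed from the same cells, the profile is a description. *Aldoc* went from 293 CPM ± 58.7 in bin 3 to 1273 ± 69.6 in bin 14 (4.34-fold) within P3, with most of the gain after bin 11 (324 CPM), and stood at 4883 to 5353 CPM in the 3m bins. *Pygb* went from 37.2 to 140 CPM (3.75-fold), *Ppp1r3c* from 15.3 to 55.5 CPM (3.63-fold), *Pdk2* from 8.49 to 22.4 CPM (2.64-fold), *Pfkm* from 38.9 to 91.5 CPM (2.35-fold) and *Hk1* from 12.2 to 26.9 CPM (2.20-fold). *Pdk1* ranged from 2.49 to 17.6 CPM, and was at 9.36 to 10.7 CPM in the 3m bins. These genes had their P3 maximum in bins 13 or 14.

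*Ldha* was highest in bin 10 (541 CPM), where *Aldoc* was near its minimum (182 CPM), and had dropped to 223 CPM by bin 14 and 67.6 to 126 CPM in the 3m bins. *Pkm* had the same peak, with 434 CPM in bin 10 and 241 CPM in bin 14, then 254 to 289 CPM at 3m. *Pgk1* stood at 376 CPM in bin 3 and 236 CPM in bin 14, with its P3 maximum in bin 11 (399 CPM). *Slc16a1* stood at 24.1 CPM in bin 3 and 13.3 CPM in bin 14, with its P3 minimum in bin 5 (9.07 CPM). *Ldhb* stayed between 595 and 757 CPM up to bin 11 and reached 1299 CPM in bin 13. *Gapdh* (2118 to 2478 CPM), *Gpi1* and *Tpi1* kept within 1.5-fold over the P3 bins.

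For *Pfkp* and *Hk2* the P3 bins showed no trend toward the 3m level. *Pfkp* stayed between 0.72 and 4.35 CPM from bin 3 to bin 14 and was at 48.5, 122 and 128 CPM in bins 16, 17 and 18. *Hk2* was at 26.3 CPM in bin 3 and 25.7 CPM in bin 14 (13.5 to 35.6 CPM between them), and at 0, 5.86 and 3.43 CPM in the 3m bins. In contrast *Aldoc*, *Pfkm*, *Hk1*, *Pdk2*, *Pygb* and *Ugp2* already stood higher at the end of the P3 bins than at their start, and *Ldha* lower.

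**Figure D5:**
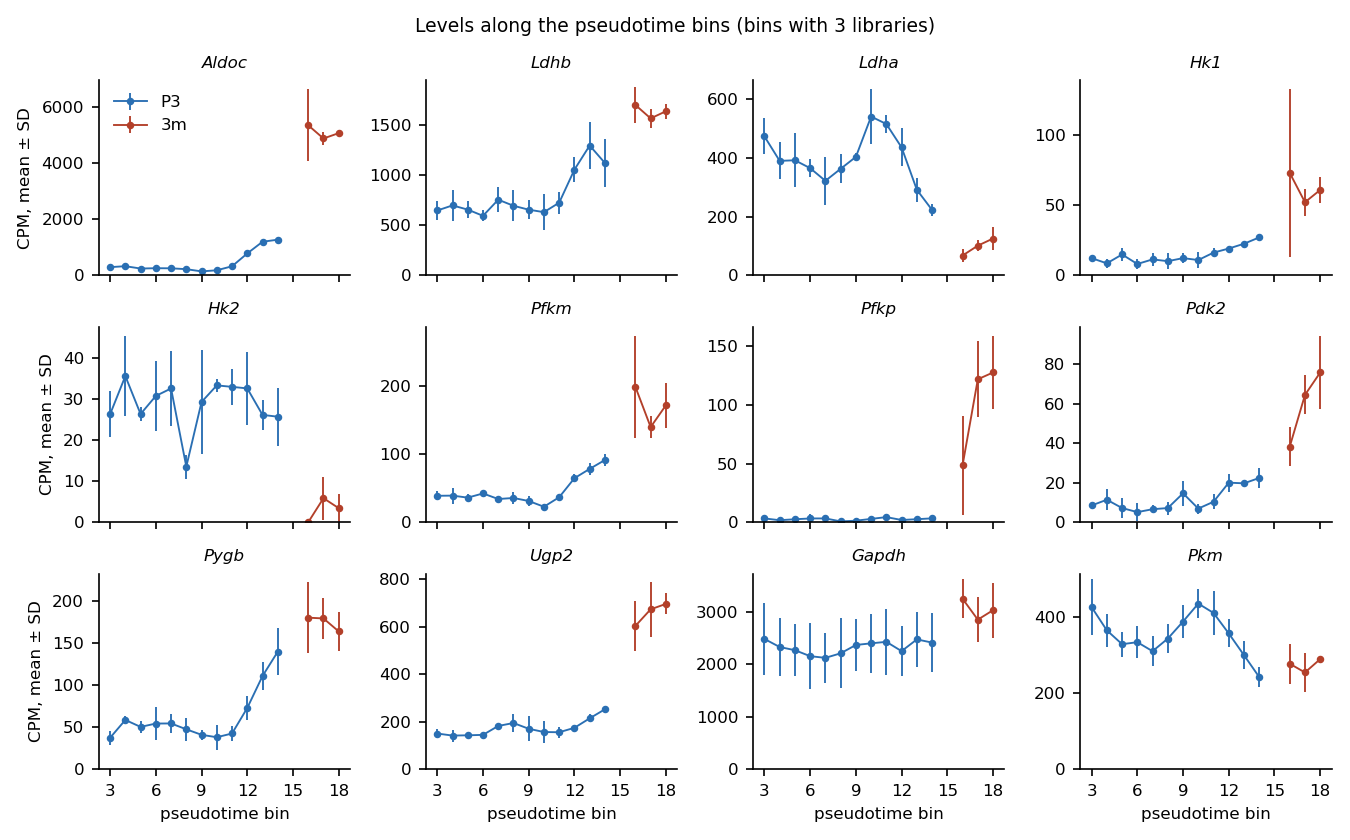
Mean CPM ± SD over 3 libraries of 12 genes along the pseudotime bins, P3 bins in blue and 3m bins in red, each panel on its own axis from 0. *Ldha* and *Pkm* peak at bin 10 and *Aldoc*, *Pfkm* and *Pygb* climb after bin 11, while *Pfkp* stays at or below 4.35 CPM in every P3 bin.

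To describe the genes with age held fixed, cycling and non-cycling P3 astroglial cells were compared within each library. Each cell was first sampled down to 2000 UMIs, which removed 48, 118 and 947 cells of lower depth per library, and was called cycling when at least 2 of *Mki67*, *Top2a* and *Cdk1* had a UMI, and non-cycling when none had, which gave 171, 207 and 229 cycling and 1626, 2547 and 2382 non-cycling cells. The full UMIs of the cells were then summed. Of 31 genes tested 4 were called lower in cycling cells, where 9.27% of the 12985 genes tested were, and 0 higher, where 8.44% were. By edgeR 10 genes were positive at an unadjusted p under 0.05, none of them past 2-fold, and DESeq2 also called 0 higher. *Aldoc* stood at 258, 313 and 222 CPM in cycling and at 1091, 1090 and 1092 CPM in non-cycling cells (-1.95 ± 0.09, adjusted p = 9.88e-17). The gap was at least 3-fold in each of the 3 libraries.

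*Pdk2* (6.74, 8.31 and 8.32 CPM against 20.4, 20.2 and 28.7 CPM, -1.45), *Pygb* (42.8, 49.3 and 58.2 CPM against 109, 102 and 159 CPM, -1.18) and *Hk1* (10.5, 10.9 and 11.6 CPM against 25.0, 19.7 and 27.7 CPM, -1.02) also fell. The *Hk1* value lay at the limit of 2-fold, and it was not called with DESeq2 and with relative log expression scaling, and not called without P3 replicate 1 (-0.93) or P3 replicate 3 (-0.94). *Ldha* passed the test at a small size (423, 355 and 323 CPM against 313, 284 and 234 CPM, 0.51 ± 0.07), as did *Pgk1* (0.41), *Pkm* (0.35), *Dlat* (0.44) and *Slc16a1* (0.69). *Hk2* was at 29.0, 30.1 and 28.2 CPM in cycling and 23.3, 28.7 and 25.3 CPM in non-cycling cells (0.28 ± 0.11, adjusted p = 0.032). Within each library *Ldha* and *Hk2* were higher in the cycling cells, by less than 2-fold. Cycling cells were deeper (median 13595 to 17645 UMIs) than non-cycling cells (6516 to 9236 UMIs), and with every cell thinned to equal depth 7 genes were called lower. Of the other pathway genes 9 of 45 tested were called lower, where 9.27% of all genes were. Among them were *Phkg1* (-2.18), *Pygl*, the liver phosphorylase (-1.74), *Ppp1r3g* (-1.67) and *Epas1* (-1.54). Only *Slc2a4*, the transporter GLUT4, was called higher (9.96, 6.23 and 5.64 CPM against 2.15, 1.58 and 1.40 CPM, 2.17 ± 0.28), where 8.44% of all genes were.

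In the GENCODE M21 annotation of GRCm38 *Hk2* spans chr6:82725025-82774454, *Pfkp* chr13:6579768-6648777, *Aldoc* chr11:78322968-78327781, *Ldha* chr7:46841475-46855627 and *Ldhb* chr6:142490249-142507957. A 3′ library counts UMIs mostly at the last exon, so the levels do not tell which annotated start was used.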

How the data were processed

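Single-cell RNA-Seq libraries of 3 P3 and 3 3m preparations were read from one deposited table of raw UMI counts, which the authors made with Cell Ranger (build mm10) and merged in Seurat 3.1.1 (submitters' processing notes) without normalization. The authors kept and annotated cells in which more than 500 genes were detected and mitochondrial transcripts made up less than 10%, and their cluster names, astroglial sub-clusters and 20 pseudotime bins were used as given. The deposited pseudotime is a score without unit, and only its bins were used. How doublets were treated is not given in the sources used here, and no doublet caller was run.

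UMIs were summed per library and class and tested with edgeR 4.0.16 (R 4.3.3, quasi-likelihood test, TMM, filterByExpr, Benjamini-Hochberg adjustment over all genes tested). Calls needed a change of 2-fold or more with an adjusted p no higher than 0.05. The interaction and cycling models held library as a block. Levels are UMIs per 1000000 UMIs of the class, in classes with at least 10 cells in a library. Isozyme shares were compared with an exact permutation test (scipy 1.17.1). Scripts were tested on simulated counts. Alternatives were relative log expression scaling, no scaling, DESeq2 1.42.0, no filter on low counts, a replicate block, stricter cells, thinned sums, subsets of cells and each library left out. Depth was 1157485 to 30617140 UMIs per astroglial sum, and intervals cover counting error only.

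The 32 genes, the 61 other pathway genes, named where called, and the marker lists were chosen with earlier results of these data known. Gene identity followed symbols of the count table. Reads of *Eno1* and *Eno1b*, and of the 2 *Aldoa* entries, may be shared between copies. Promoter windows came from RefSeq. 1 pathway gene is counted but not reported by name here.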

Additional observations from a re-analysis of the deposited data

Results flagged for a closer look

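The age difference of 10 genes differed between astroglial cells and microglia in the interaction test (edgeR, within libraries). Values are the log2(fold change) of 3m over P3 in astroglial cells minus that in microglia, from a fit that scaled both classes together. They therefore depart from the plain difference of the values given for each class alone. Over all genes tested the median of this term was 0.36, and 0.17 with DESeq2. The term was positive for *Ugp2*, UDP-glucose pyrophosphorylase (2.78), *Aldoc* (2.70), *Gpi1* (2.18), *Pkm* (1.73), *Aldoa* (1.63), *Tpi1* (1.61), *Eno1* (1.54), *Gapdh* (1.49) and *Pgk1* (1.47). It was negative for *Hk2* (-2.86), which fell with age in astroglial cells and stood higher at 3m in each microglial library. The microglial sums held 17 to 46 cells, and *Pgk1* did not pass without 3m replicate 1 (adjusted p = 0.067), 3m replicate 2 (0.20) or P3 replicate 3 (0.065). *Ugp2* rests on 4, 5 and 0 UMIs in the 3m microglial libraries, *Gpi1* on 5, 15 and 4, and *Pgk1* on 7, 4 and 7. With DESeq2 *Aldoc* (adjusted p = 0.070), *Pgk1* (0.13) and *Eno1* (0.11) did not pass the test.

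Between astroglial cells and the endothelial clusters the age difference differed for 15 genes in the same kind of test, where age and endothelial cluster cannot be told apart. It was more positive in astroglial cells for *Pfkp* (6.51), *Slc16a1* (3.10), *Gys1* (2.97), *Ugp2* (1.91), *Gapdh* (1.90), *Pdk2* (1.86), *Pygb* (1.52), *Hk1* (1.52), *Eno1* (1.38), *Pfkm* (1.37), *Gpi1* (1.23), *Pfkl* (1.13) and *Pkm* (1.12). It was more negative for *Gbe1* (-2.48) and *Ppp1r3c* (-2.74). *Gys1* rests on 0 or 1 UMI and *Ppp1r3c* on 1 to 7 UMIs in the 3m endothelial libraries.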

How the results depend on the processing

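Of 1275 alternative values 1199 counted as unchanged. For 1005 of these, values of single genes, direction and side of the threshold were kept. The other unchanged values were counts of called genes that moved little or not at all, and isozyme shares that kept their direction. In astroglial cells the stricter cell filter, which kept 12 cells of 3m replicate 1, left 5 genes called higher (*Pfkp*, *Pfkm*, *Aldoc*, *Pdk2* and *Ugp2*). Leaving out 1 library gave 8 to 9 higher and 2 to 3 lower. With no scaling beyond library totals 1753 of all genes were called higher and 2790 lower, against 2140 and 2204, and their median moved from -0.04 to -0.24. In microglia DESeq2 called 1 gene lower, and leaving out 1 library gave 0 to 3. In the endothelial clusters the stricter filter gave 1 higher and 4 lower, no filter on low counts gave 5 lower, and leaving out 1 library gave 2 to 3 higher and 2 to 4 lower (4 without 3m replicate 3 or P3 replicate 1). In the interaction tests leaving out 1 library gave 8 to 10 higher and 1 lower against microglia, and 12 to 14 higher and 2 lower against endothelial clusters, where DESeq2 gave 1 lower. In cycling cells thinning each cell to equal depth gave 7 lower, and leaving out 1 library gave 3 to 4. The causes were not tested.

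Genes without a call whose sign turned in astroglial cells were *Slc2a3* (0.039 without cycling cells, and -0.90 to 0.0043 with 1 library left out, the latter without 3m replicate 1), *Pkm* (-0.048 without scaling, -0.12 under the stricter filter), *Pdhb* (-0.044 without scaling, -0.22 under the stricter filter, -0.14 to 0.30 with 1 library left out), *Dlat* (-0.12, stricter filter), *Pdk1* (-0.24 thinned, -0.070 in the telencephalic sub-clusters) and *Ppp1r3c* (-0.029 in the telencephalic sub-clusters). All 72 alternative isozyme shares kept their direction.

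With the replicate block 9 genes were called higher and 2 lower in astroglial cells, 0 and 3 in microglia, and 2 and 2 in the endothelial clusters, and it changed no call among the 32 genes. Samples of the same replicate number correlated at 0.04 to 0.21 in astroglial cells, and samples of different numbers at -0.17 to 0.14. The labels do not say whether samples of the same number share a preparation. Depth limited the precision of the microglial values (17 to 23 cells per 3m library) and of sparse genes such as *Hk2*, *Eno2* and *Slc16a7*.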
